A study of Rattus norvegicus with 9 samples.

Results

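The respiratory chain genes of NRK-49F cells, fibroblasts grown as a stable line from rat kidney, are described here from RNA-seq of 9 libraries. Members were the gene rows whose symbols name a subunit of complexes I to V or a complex I assembly factor of the Ndufaf series (Mt-nd, Mt-co, Mt-cyb, Mt-atp, Nduf, Sdha to Sdhd, Uqcr, Cox4 to Cox8 and Atp5) and that had a count in at least 1 library. That gave 104 of the 22050 genes in the table, 13 encoded by the mitochondrial genome and 91 by the nuclear genome. A further 6 matching rows were at 0 in every library. The groups were TGF-β1 plus YWCH-4A, TGF-β1 plus YEXX-2A and TGF-β1 plus vehicle, with 3 libraries each. All cells are labelled wild type, and every group received TGF-β1, a growth factor under which fibroblasts turn into contractile, matrix-secreting myofibroblasts, for 48 h. The dose and timing of the compounds are not given in the labels, both are known here by code name only, and a group lacking TGF-β1 was not analysed here. NRK-49F is a single cell line, so the groups differ by treatment and not by animal. The study states biological replicates without saying whether they were separate cultures, so p-values measure only the spread between these libraries.

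The respiratory chain passes electrons from NADH (complex I) and succinate (complex II) through complex III to oxygen at complex IV, and complex V uses the resulting proton gradient to make ATP. The mitochondrial genome encodes a few hydrophobic core subunits of complexes I, III, IV and V, while all of complex II and the many other subunits are nuclear genes whose products are imported. Mitochondrial mRNAs are cut from long transcripts of both strands of the circular genome, and their levels depend on transcription, on processing and on RNA-binding proteins inside the organelle. Libraries were made from RNA enriched on oligo(dT) beads, per the labels' protocols, so that the values below are for RNA captured in that way. Polyadenylation of single transcripts was not measured.

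Library totals ran from 13675880 to 21923706 estimated counts. The biological coefficient of variation over all tested genes was 3.66% among YWCH-4A, 7.32% among YEXX-2A and 16.6% among vehicle libraries, and it was 4.68% among vehicle libraries without replicate 2. On a library score, the first component of the variation within groups, vehicle replicate 2 lay at 51.3, while the other 8 libraries lay between -25.8 and 6.01, so counts of calls, and the named values that it moves most, are also given without that library. Of 11 fibroblast marker genes, 9 reached 1 CPM (counts scaled to TMM-adjusted library totals) in at least 1 library, and their sum ran from 36188 to 39415 CPM in YWCH-4A, 55898 to 60609 CPM in YEXX-2A and 67329 to 86354 CPM in vehicle libraries. Of 10 kidney epithelial markers only Krt8 reached 1 CPM, Epcam, Krt18, Umod, Slc12a1 and Aqp2 were at 0 in all libraries, and the summed level of the list ran from 897 to 946 CPM in YWCH-4A, 1482 to 1568 CPM in YEXX-2A and 1713 to 2203 CPM in vehicle libraries. Of 7 leukocyte markers only Cd68, a lysosomal protein that fibroblasts also make, reached 1 CPM, with summed levels of 66.2 to 73.7, 41.7 to 45.1 and 47.3 to 62.9 CPM in YWCH-4A, YEXX-2A and vehicle libraries, and Tyrobp was at 0 in both compound groups. Of 7 endothelial markers 3 reached 1 CPM, with sums of 168 to 187, 207 to 227 and 233 to 292 CPM in the same order of groups. The part of these marker levels in the results below was not tested.

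The mitochondrially encoded genes took a larger share of all counts in YEXX-2A libraries than in the other groups, while the nuclear encoded genes took the largest share in YWCH-4A libraries. The 13 mitochondrial genes made up 1.88, 2.00 and 1.89% of counts in YWCH-4A replicates 1 to 3, 2.53, 2.66 and 2.30% in YEXX-2A replicates and 1.90, 1.42 and 2.04% in vehicle replicates. The 3 YEXX-2A libraries were above all others, and the YWCH-4A libraries lay within the range of the vehicle libraries, of which replicate 2 was lowest. The group means were 1.93 ± 0.0666%, 2.49 ± 0.180% and 1.79 ± 0.322% for YWCH-4A, YEXX-2A and vehicle (SD, n = 3 each). In bulk RNA, fewer cells rich in these transcripts and less of the RNA per cell cannot be told apart.

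The 91 nuclear genes together made up 0.730, 0.739 and 0.719% of counts in YWCH-4A libraries, 0.670, 0.637 and 0.617% in YEXX-2A libraries and 0.656, 0.641 and 0.608% in vehicle libraries. All YWCH-4A libraries were above all others here, and YEXX-2A and vehicle libraries overlapped. The count of the mitochondrial genes over that of the nuclear genes was 2.58, 2.71 and 2.63 in YWCH-4A, 3.77, 4.17 and 3.73 in YEXX-2A and 2.89, 2.22 and 3.35 in vehicle libraries. Each YEXX-2A ratio exceeded each vehicle ratio, and the 3 YWCH-4A ratios lay close together inside the vehicle range. A share over members was given no test.

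**Figure D1:**
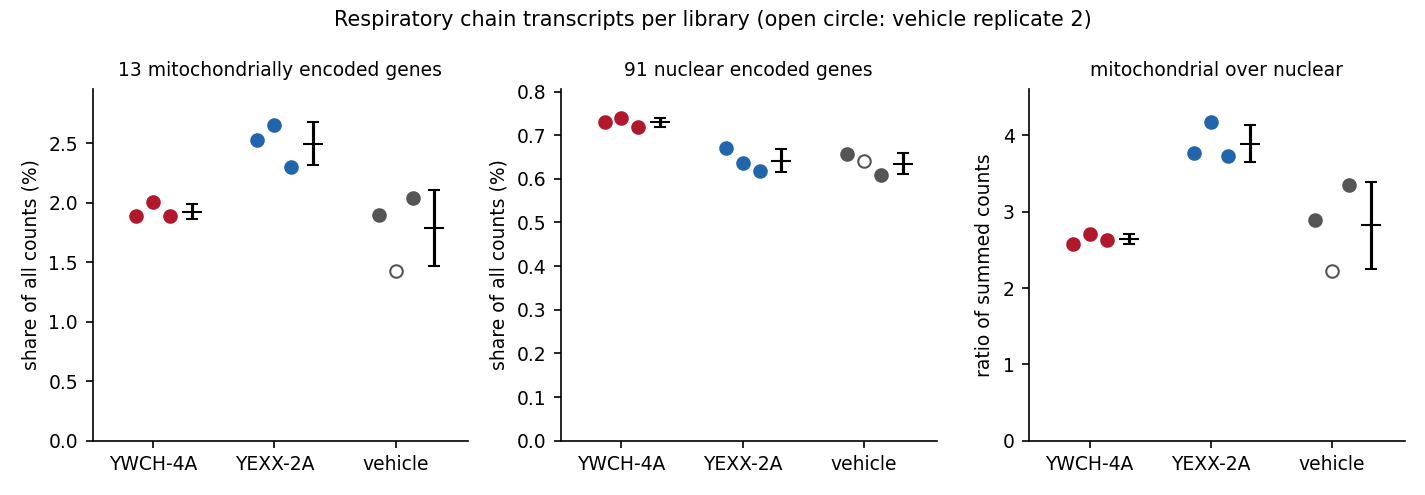
Share of all estimated counts taken by the mitochondrially encoded and by the nuclear encoded respiratory chain genes, in percent, and the ratio of the 2 sums, for each library; bars at the right of each group are the mean and SD of 3 libraries. Mitochondrial shares of 2.30% to 2.66% in YEXX-2A libraries sit above all other libraries, and nuclear shares of 0.719% to 0.739% in YWCH-4A libraries sit above all others.

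Levels of different genes are compared on FPKM (fragments per kilobase, scaled to library size, which is per length). Mt-co1, the catalytic core subunit of cytochrome c oxidase, was the highest member in every group, with 7499.5 ± 267 FPKM in YWCH-4A, 9654 ± 608 FPKM in YEXX-2A and 6567 ± 1159 FPKM in vehicle libraries (SD, n = 3 each). It held 60.2 ± 0.536% of the mitochondrially encoded counts in YWCH-4A, 59.8 ± 0.556% in YEXX-2A and 56.8 ± 0.367% in vehicle libraries, with every compound library above every vehicle library. In vehicle cells the FPKM order after Mt-co1 was Mt-nd1 (2134), Mt-cyb (1962), Mt-co3 (1005), Mt-atp6 (987), Mt-co2 (983), Mt-nd2 (405), Mt-nd4 (342), Mt-nd5 (191), Mt-nd3 (99.8), Mt-atp8 (81.0), Mt-nd4l (45.2) and Mt-nd6 (24.8). Mt-nd1 and Mt-cyb, Mt-co3, Mt-atp6 and Mt-co2, Mt-nd2 and Mt-nd4, and Mt-nd3 and Mt-atp8 were neighbours in that order that differed by less than the larger of their SDs between vehicle libraries. The nuclear members with the highest FPKM in vehicle libraries were Atp5f1b, the catalytic β subunit of ATP synthase (572 FPKM), Cox6a1 (295), Cox4i1 (279) and Atp5f1a (270.4).

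The tissue-linked isoform pairs of complex IV differed widely in level. Cox6a1, the widely expressed form, was at 306, 265 and 295 FPKM in YWCH-4A, YEXX-2A and vehicle libraries, while the heart and muscle form Cox6a2 was at 4.82, 5.99 and 3.33 FPKM. Cox4i2, the form linked to low oxygen, and Cox8b, a muscle form, were at 0 in all 9 libraries, while Cox4i1 and Cox8a were abundant. Cox7a1, the muscle form, had 3, 0 and 1 counts in YWCH-4A libraries, 4, 0 and 0 in YEXX-2A libraries and 2, 0 and 0 in vehicle libraries. Ndufa4l2, the hypoxia-linked relative of the complex IV subunit Ndufa4, had no count in YWCH-4A or YEXX-2A libraries and 0, 1 and 1 in vehicle libraries.

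Of the 104 members 99 had enough counts for the test, all 13 mitochondrial genes and 86 nuclear genes. The 5 left out were Ndufa1, Cox7a1, Ndufa4l2 and the lesser rows of Ndufa10l1 and Ndufv3, all with at most 18 counts in any library. Each comparison was fitted over all 11473 tested genes with the quasi-likelihood test of edgeR, and calls were made at an adjusted p below 0.05. The first comparison asked how YEXX-2A changed respiratory chain transcripts of TGF-β1-treated fibroblasts, the second asked the same of YWCH-4A, and the third set one compound against the other. The first and second share the vehicle libraries, and the values of each are given side by side without a test between them.

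With YEXX-2A, 8 of the 13 mitochondrial genes rose and none fell, where 36.1% of all tested genes were called (17.6% higher and 18.5% lower). The 8 were Mt-nd2, Mt-nd3, Mt-nd4l, Mt-nd5 and Mt-nd6 of complex I and Mt-co1, Mt-co2 and Mt-co3 of complex IV. The median log2 fold change over the 13 genes was 0.60, beside 0.01 over all tested genes. The single gene of complex III and both genes of complex V were not called. For 8 of the 13 genes every YEXX-2A library was above every vehicle library, where 25.3% of all tested genes showed that pattern.

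Mt-nd6, a complex I subunit and the only one of the 13 encoded on the light strand, had the largest rise. It was at 34.1, 33.7 and 22.1 CPM in YEXX-2A libraries and 15.7, 10.2 and 14.8 CPM in vehicle libraries (log2 fold change 1.15, SE 0.19, edgeR adjusted p = 0.00344). All YEXX-2A libraries were above all vehicle libraries, with YEXX-2A replicate 3 nearest to them. Mt-nd3, a small membrane subunit of complex I, was at 89.9, 87.0 and 57.0 CPM with YEXX-2A and 41.7, 24.6 and 43.4 CPM with vehicle (log2 fold change 1.09, SE 0.22, edgeR adjusted p = 0.00809), again without overlap and with YEXX-2A replicate 3 and vehicle replicate 2 lowest in their groups. Of the overlapping reading frames Mt-nd4l and Mt-nd4, Mt-nd4l was at 0.84 (edgeR adjusted p = 0.0223) and Mt-nd4 at 0.30 (edgeR adjusted p = 0.0541, not called). A difference between the 2 genes was not tested, and for Mt-nd4 every YEXX-2A library was above every vehicle library. The Mt-nd4l libraries of the groups overlapped, and without vehicle replicate 2 Mt-nd4l was no longer called. Mt-nd5 and Mt-nd2, large proton-pumping subunits, rose by 0.64 and 0.60 on the log2 scale. Mt-nd1, also of complex I, was at 0.06 (edgeR adjusted p = 0.457).

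All 3 mitochondrial genes of complex IV rose with YEXX-2A. Mt-co1 was at 15026, 15713 and 14074 CPM in YEXX-2A libraries, against 11027, 9069 and 12097 CPM in vehicle libraries (log2 fold change 0.48, SE 0.10, edgeR adjusted p = 0.00882). The groups did not overlap. Mt-co2, which carries the copper centre that takes electrons from cytochrome c, was at 1225, 1376 and 1007 CPM in YEXX-2A libraries and 788, 479.6 and 858 CPM in vehicle libraries (log2 fold change 0.76, SE 0.19, edgeR adjusted p = 0.0151), and Mt-co3 rose by 0.67 (SE 0.15). Neither overlapped between groups, and YEXX-2A replicate 2 was highest for each of the 3 genes. Mt-cyb, the cytochrome b of complex III, was at 2445, 2447 and 2309 CPM with YEXX-2A and 2424, 1924 and 2761 CPM with vehicle, inside the vehicle range (log2 fold change 0.02, SE 0.11, edgeR adjusted p = 0.901). For complex V, Mt-atp6 was at 0.25 (edgeR adjusted p = 0.125) and Mt-atp8 at 0.45 (edgeR adjusted p = 0.05), both uncalled.

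Vehicle replicate 2 was the lowest vehicle library for 12 of the 13 genes, Mt-nd1 being the exception, and the library scores were -18.3, -25.8 and -5.64 for YEXX-2A and -0.334, 51.3 and -6.33 for vehicle libraries. Without vehicle replicate 2 the same number of mitochondrial genes, 8, was called and the median was 0.43, with Mt-co1 at 0.37 and Mt-nd6 at 0.99. In a fit that includes the score 5 rose, Mt-cyb was called lower (-0.20) and the median was 0.27. The score itself differs between the groups, so that fit can also take up part of a group difference. The count was 5 without YEXX-2A replicate 1 and 4 without YEXX-2A replicate 2, where the number called over all genes also dropped to 1459 and 1044. Mt-co1 and Mt-nd6 kept their calls under all 12 alternatives and with each library left out.

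With YWCH-4A only 1 mitochondrial gene was called, and 30.6% of all tested genes were (15.7% higher and 14.9% lower). The median over the 13 was -0.11, beside 0.03 over all tested genes, and it was 0.11 on the log2(FPKM + 1) scale, where the median of all genes was 0.18. Mt-atp6, which forms the proton channel of ATP synthase with the c-ring, was at 493, 569.8 and 508 CPM in YWCH-4A libraries and 824, 586 and 720.1 CPM in vehicle libraries (log2 fold change -0.44, SE 0.12, edgeR adjusted p = 0.0199). All YWCH-4A libraries were below all vehicle libraries, the highest of them by a narrow margin. Mt-atp8, whose reading frame overlaps that of Mt-atp6, was at -0.47 with an edgeR adjusted p = 0.051. The other 11 genes ranged from -0.25 (Mt-co3) to 0.28 (Mt-nd6), none called. The Mt-atp6 call was lost without vehicle replicate 1, YWCH-4A replicate 1 or YWCH-4A replicate 3. Without vehicle replicate 2, 6 genes were called lower (median -0.21), and calls over all genes rose from 3516 to 4588. With the library score in the model 8 were called lower, where calls over all genes also rose. Without vehicle replicate 3 the median was 0.05.

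YWCH-4A and YEXX-2A libraries differed in 11 of the 13 mitochondrial genes, all lower with YWCH-4A, where 31.3% of all tested genes were called (16.2% higher and 15.1% lower). The median difference was -0.74, beside -0.00 over all tested genes. The 2 compounds were given to cells under the same TGF-β1 exposure, but their doses are not known and may differ. Mt-co3, the third core subunit of complex IV, was at 658, 741 and 699 CPM in YWCH-4A libraries and 1299.9, 1500.4 and 1161 CPM in YEXX-2A libraries (log2 fold change -0.92, SE 0.15, edgeR adjusted p = 0.000911). Mt-atp8 was at 11.4, 14.1 and 12.4 CPM in YWCH-4A and 25.7, 25.02 and 20.5 CPM in YEXX-2A libraries (log2 fold change -0.92, SE 0.16, edgeR adjusted p = 0.00165). Neither gene overlapped between the compounds.

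Among the complex I genes the difference ran from -0.26 for Mt-nd1 to -0.86 for Mt-nd6, whose YWCH-4A libraries held 17.0, 16.9 and 15.8 CPM. Mt-nd4 (-0.31, edgeR adjusted p = 0.0567) and Mt-cyb (-0.21, edgeR adjusted p = 0.165) were not called. For 12 of the 13 genes all YWCH-4A libraries were below all YEXX-2A libraries, where 29.1% of tested genes showed that pattern, and Mt-nd4l was the gene that overlapped. The calls of Mt-atp6, Mt-atp8, Mt-co1, Mt-co2, Mt-co3, Mt-nd2, Mt-nd5 and Mt-nd6 held under all 12 alternatives and with each library left out. The median was -0.50 with the library score in the model.

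**Figure D2:**
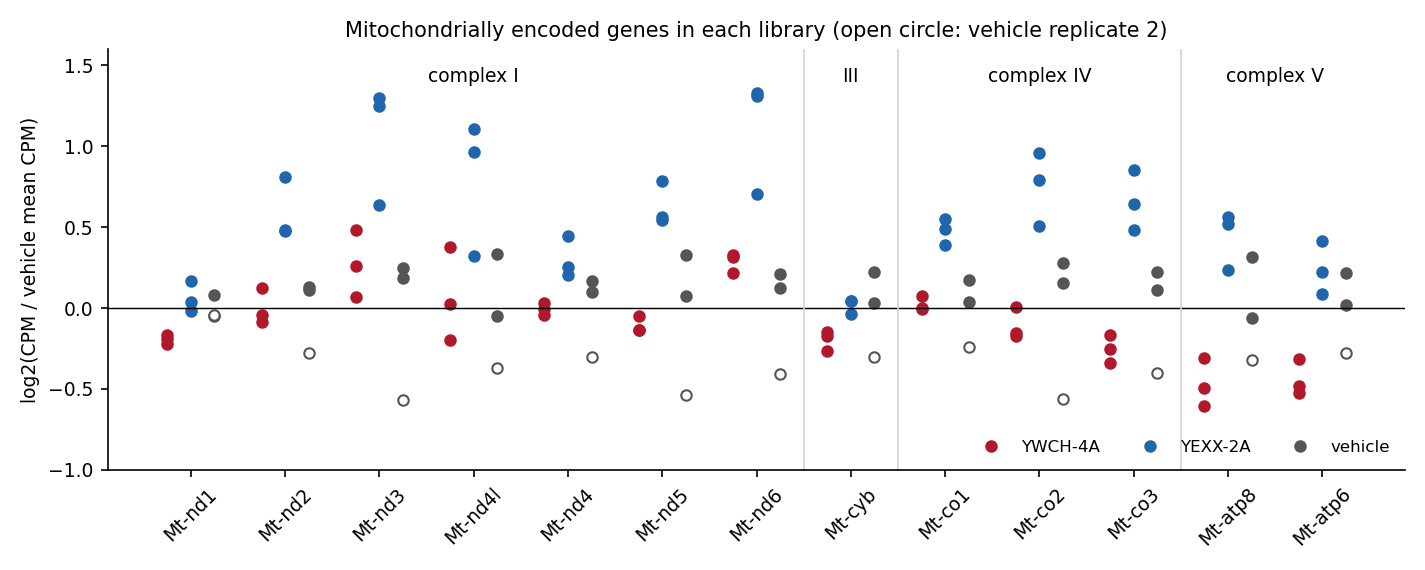
Level of each mitochondrially encoded gene in each library as log2 of its CPM over the mean CPM of the 3 vehicle libraries, grouped by complex. YEXX-2A libraries lie above all vehicle libraries for 8 genes, where 25.3% of all tested genes showed that pattern. YWCH-4A libraries lie below all vehicle libraries for Mt-nd1 and Mt-atp6 and above them for Mt-nd6. Of all tested genes 21% were below and 24.9% above in that way. The open circle of vehicle replicate 2 is the lowest vehicle point for 12 of 13 genes.

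Some mitochondrial genes share sequence with a neighbour or partner. Whether the counting used strand is not stated in the sources used here, and Mt-nd6 lies on the strand opposite to its neighbours Mt-nd5 and Mt-cyb. Reads of Mt-nd6 therefore cannot be told apart from reads of the opposite strand. Whether they come from polyadenylated mRNA was not measured. The count of Mt-nd6 over that of Mt-nd5 was 5.08, 4.73 and 4.72% in YWCH-4A libraries, 6.28, 5.32 and 4.12% in YEXX-2A libraries and 4.05, 4.03 and 3.20% in vehicle libraries. It was above all vehicle libraries in all 3 YWCH-4A and all 3 YEXX-2A libraries. The count of Mt-atp8 over that of Mt-atp6, which lie on 1 mRNA in mammals, was 2.32, 2.47 and 2.44% in YWCH-4A, 3.10, 2.64 and 2.72% in YEXX-2A and 2.63, 2.38 and 2.32% in vehicle libraries, with every YEXX-2A library above the others. The count of Mt-nd4l over that of Mt-nd4 was 2.49, 3.60 and 2.98% in YWCH-4A, 5.14, 4.08 and 3.08% in YEXX-2A and 3.35, 2.71 and 2.45% in vehicle libraries, with overlap between all groups. Copies of mitochondrial sequence in the nuclear genome could also take reads, and the assignment of such reads is uncertain.

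The nuclear encoded genes were called in both directions. With YEXX-2A 21 of 86 rose and 11 fell (median log2 fold change 0.13), with YWCH-4A 17 rose and 2 fell (median 0.17), and between the compounds 8 were higher and 2 lower with YWCH-4A (median 0.04). The share called with YEXX-2A, 37.2%, was close to the 36.1% of all tested genes, of which 17.6% were higher and 18.5% lower. With YWCH-4A 22.1% were called, under the 30.6% over all tested genes. Between the compounds it was 11.6%, under 31.3%. All YEXX-2A libraries were above all vehicle libraries for 24 of the 86 genes and below for 12, where 25.3% and 26.3% of all tested genes showed these patterns. All YWCH-4A libraries were above all vehicle libraries for 34 genes and below for 6 (24.9% and 21% of all tested genes), and above all YEXX-2A libraries for 23 and below for 5 (29.9% and 29.1%). On the log2(FPKM + 1) scale the split was 26 higher and 6 lower with YEXX-2A, 52 and 0 with YWCH-4A and 27 and 0 between the compounds, and the median of all tested genes was then 0.07, 0.18 and 0.08.

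**Figure D3:**
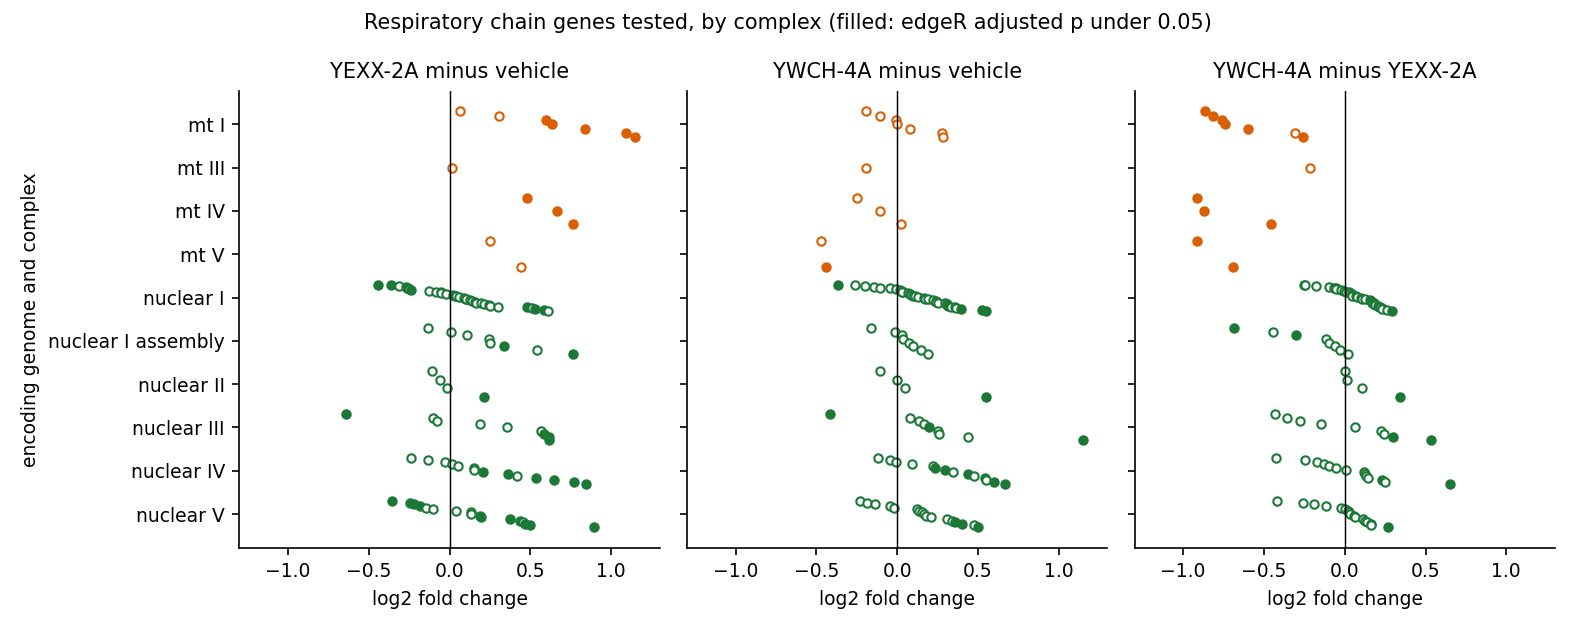
Log2 fold change of each tested respiratory chain gene by encoding genome and complex in the 3 comparisons, filled where the edgeR adjusted p is under 0.05; vertical offsets within a row only separate points. Mitochondrial genes of complexes I and IV lie at 0.06 to 1.15 in YEXX-2A minus vehicle and at -0.92 to -0.26 in YWCH-4A minus YEXX-2A, while nuclear genes of each complex lie on both sides of 0 against vehicle.

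In complex I, the 7 nuclear core subunits, which hold the flavin and iron-sulphur centres of the electron path, included 3 that fell with YEXX-2A and none that rose, where 18.5% of all tested genes were called lower and 17.6% higher. Ndufv1, which binds NADH and the flavin, was at 327, 309 and 328 CPM in YEXX-2A libraries and 404, 525 and 383 CPM in vehicle libraries (log2 fold change -0.44, SE 0.10, edgeR adjusted p = 0.0123). The groups did not overlap, and vehicle replicate 2 was the highest library, without which the change was -0.29. Ndufs8 fell by 0.36 on the log2 scale, and was at -0.22 without that library. With YWCH-4A none of the 7 was called, with Ndufv1 at -0.26 (edgeR adjusted p = 0.0769). Of all tested genes 15.7% were called higher and 14.9% lower with YWCH-4A, and a difference between the compounds in these counts was not tested.

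Among 27 tested accessory subunits of complex I, 3 rose and 3 fell with YEXX-2A, and 5 rose and 1 fell with YWCH-4A. That was 22.2% called with each compound, below the 36.1% of all tested genes with YEXX-2A and 30.6% with YWCH-4A. Ndufs4, needed for a stable NADH-oxidising arm, was at 26.3, 30.8 and 28.3 CPM in YWCH-4A libraries, 27.4, 29.4 and 26.9 CPM in YEXX-2A libraries and 19.5, 18.9 and 19.8 CPM in vehicle libraries. Every compound library was above every vehicle library, and the compounds overlapped. The log2 fold change was 0.53 (SE 0.09, edgeR adjusted p = 0.00402) with YEXX-2A and 0.55 (SE 0.09, edgeR adjusted p = 0.000954) with YWCH-4A. Ndufb3 rose with each compound (0.58 with YEXX-2A and 0.53 with YWCH-4A), Ndufa5 rose with YEXX-2A (0.48), and Ndufa6, Ndufb4 and Ndufc2 rose with YWCH-4A (0.31 to 0.40). Ndufa9, Ndufb7 and Ndufv3 fell with YEXX-2A, the call of Ndufb7 being lost without vehicle replicate 2. Ndufv3 was lower in CPM with each compound (-0.27 with YEXX-2A and -0.37 with YWCH-4A). With YWCH-4A its log2(FPKM + 1) difference was 0.08, so its direction depends on the unit. The median of all tested genes on that scale was 0.18. Its symbol also stands on a lesser row with at most 5 counts in any library.

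The 8 Ndufaf genes help to build complex I and are not part of it. Of these Ndufaf4 and Ndufaf5 rose with YEXX-2A and none was called with YWCH-4A. The share called with YEXX-2A was 25%, below the 36.1% of all tested genes (17.6% higher and 18.5% lower), and 30.6% of all tested genes were called with YWCH-4A. Ndufaf4 was at 3.71, 4.10 and 2.81 CPM with YWCH-4A, 5.96, 6.51 and 4.59 CPM with YEXX-2A and 3.32, 2.77 and 4.01 CPM with vehicle. The YEXX-2A libraries were above all others, and the call of Ndufaf5 was lost without vehicle replicate 2. The Ndufaf4 log2 fold change was 0.76 in YEXX-2A minus vehicle (edgeR adjusted p = 0.021) and -0.69 in YWCH-4A minus YEXX-2A (edgeR adjusted p = 0.0244). Ndufaf4 and Ndufaf5 were also the only nuclear members called lower in that last comparison.

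Complex II is wholly nuclear encoded and also an enzyme of the citric acid cycle. In each comparison 1 of its 4 subunits was called (25%), where 36.1% of all tested genes were called with YEXX-2A, 30.6% with YWCH-4A and 31.3% between the compounds. Sdhd, a membrane anchor that binds haem and ubiquinone, was at 87.8, 88.6 and 81.2 CPM in YWCH-4A libraries, 66.0, 68.6 and 69.0 CPM in YEXX-2A libraries and 61.9, 54.3 and 59.3 CPM in vehicle libraries. The 3 groups did not overlap. Its log2 fold change was 0.55 with YWCH-4A (SE 0.07, edgeR adjusted p = 0.000188), 0.21 with YEXX-2A (edgeR adjusted p = 0.0417) and 0.34 between the compounds (edgeR adjusted p = 0.00442). The flavoprotein Sdha, the iron-sulphur protein Sdhb and the other anchor Sdhc lay between -0.11 and 0.05 against vehicle and were not called.

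Complex III held the nuclear member with the largest change with YWCH-4A, Uqcrh, the acidic hinge protein beside cytochrome c1. It was at 20.2, 23.2 and 24.2 CPM in YWCH-4A libraries, 17.0, 16.2 and 13.4 CPM in YEXX-2A libraries and 10.4, 11.1 and 8.97 CPM in vehicle libraries. None of the 3 groups overlapped. The log2 fold change was 1.15 with YWCH-4A (SE 0.13, edgeR adjusted p = 6.81e-05), 0.62 with YEXX-2A (SE 0.13, edgeR adjusted p = 0.00934) and 0.53 between the compounds (edgeR adjusted p = 0.00804).

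Uqcrc1, a core protein of the matrix arm of complex III, went the other way. Its level was 215, 201 and 205 CPM in YWCH-4A, 181, 167 and 185 CPM in YEXX-2A and 259, 333 and 237 CPM in vehicle libraries. All compound libraries were below all vehicle libraries, of which replicate 2 was highest. It fell by 0.64 with YEXX-2A (edgeR adjusted p = 0.00414) and by 0.41 with YWCH-4A (edgeR adjusted p = 0.0151). Its partner Uqcrc2 was at 0.59 with YEXX-2A (edgeR adjusted p = 0.0317), where vehicle replicate 2 was lowest at 41.0 CPM. Without that library Uqcrc1 was at -0.48 and Uqcrc2 at 0.36 with YEXX-2A and Uqcrc1 at -0.26 with YWCH-4A, all still called. Uqcrfs1, the Rieske iron-sulphur protein, rose with YWCH-4A (0.20, edgeR adjusted p = 0.0298) and was higher with YWCH-4A than with YEXX-2A (0.30, edgeR adjusted p = 0.00389). The symbol Uqcrb stands on 2 rows, at 7.45 to 10.4 and 6.65 to 7.87 CPM in vehicle libraries, between which reads could be split, and its values are uncertain. With YEXX-2A these rows were at 0.57 (edgeR adjusted p = 0.061, not called) and 0.61 (edgeR adjusted p = 0.0413, called). Of 9 nuclear rows of complex III, 3 rose and 1 fell with YEXX-2A, and 2 rose and 1 fell with YWCH-4A. Of all tested genes 36.1% and 30.6% were called.

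Nuclear complex IV genes were called in the upward direction only, 6 of 14 with each compound, where 17.6% of all tested genes were called higher and 18.5% lower with YEXX-2A and 15.7% higher and 14.9% lower with YWCH-4A. Cox6c, an accessory subunit with no tissue isoform, was at 82.3, 94.3 and 79.2 CPM in YWCH-4A, 92.9, 84.9 and 76.7 CPM in YEXX-2A and 61.1, 53.5 and 60.9 CPM in vehicle libraries. Each compound library was above each vehicle library. The log2 fold change was 0.54 with YEXX-2A (edgeR adjusted p = 0.00503) and 0.54 with YWCH-4A (edgeR adjusted p = 0.00167). Cox7c, Ndufa4 and Cox7a2l, the last a factor that joins complexes III and IV into supercomplexes, were also called with both compounds. Cox7b and Cox6a2 were called with YEXX-2A, and Cox8a with YWCH-4A. Without vehicle replicate 2 the calls of Cox7c with both compounds and of Cox7b with YEXX-2A were lost, with Cox7c at 0.69 with YEXX-2A and 0.44 with YWCH-4A and Cox7b at 0.43. The widely expressed Cox4i1, Cox5a and Cox5b were not called in any comparison.

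Cox7a2l2 separated the compounds. It was at 63.3, 67.1 and 65.1 CPM with YWCH-4A, 43.6, 39.8 and 41.0 CPM with YEXX-2A and 46.6, 38.4 and 38.0 CPM with vehicle. The YWCH-4A libraries were above all others, and YEXX-2A and vehicle libraries overlapped. The difference was 0.67 against vehicle (SE 0.09, edgeR adjusted p = 0.000227) and 0.65 against YEXX-2A (SE 0.09, edgeR adjusted p = 0.000285), and YEXX-2A against vehicle it was 0.01. The gene belongs to a family of near relatives among which reads could be shared, and no member row carried the symbol Cox7a2.

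In complex V, 6 of 17 nuclear genes rose and 4 fell with YEXX-2A, where 17.6% of all tested genes were called higher and 18.5% lower. Of the 5 genes of the catalytic F1 head, 3 fell and none rose. Atp5f1b was at 939.6, 895 and 946 CPM with YEXX-2A and 1029, 1201 and 1009 CPM with vehicle (log2 fold change -0.22, SE 0.07, edgeR adjusted p = 0.0384), without overlap. Atp5f1d fell by 0.36 and Atp5f1a by 0.18. Without vehicle replicate 2, Atp5f1b was at -0.14 and Atp5f1d at -0.22, both still called. Of the 3 genes of the c-ring, the membrane rotor, Atp5mc3 fell by 0.25 and the others were not called. Of 4 genes of the peripheral stalk, which holds the head still, 3 rose, with Atp5pf at 0.50, Atp5pb at 0.46 and Atp5po at 0.19. Of 4 small membrane subunits Atp5md and Atp5mf rose, the call of Atp5mf being lost without vehicle replicate 2. Differences between these small groups were not tested.

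Atp5md, a small subunit linked to dimers of ATP synthase, was at 15.3, 10.7 and 8.06 CPM in YEXX-2A libraries and 7.29, 5.54 and 5.61 CPM in vehicle libraries (log2 fold change 0.89, SE 0.22, edgeR adjusted p = 0.0154). The groups did not overlap, and YEXX-2A replicate 1 was far above replicate 3. With YWCH-4A no complex V gene fell among the nuclear ones and 3 of 17 rose, a share of 17.6%, near the 15.7% of all tested genes (14.9% fell). The 3 were Atp5po (0.36), Atp5mf (0.50) and Atp5if1 (0.40), the inhibitor that stops the enzyme running backwards. Atp5if1 also rose with YEXX-2A (0.37, edgeR adjusted p = 0.0487), and both its calls were lost without vehicle replicate 2. Between the compounds Atp5mc2, a gene of the c-ring, was the 1 complex V gene called among the nuclear members, at 0.27. Of all tested genes 31.3% were called in that comparison.

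**Figure D4:**
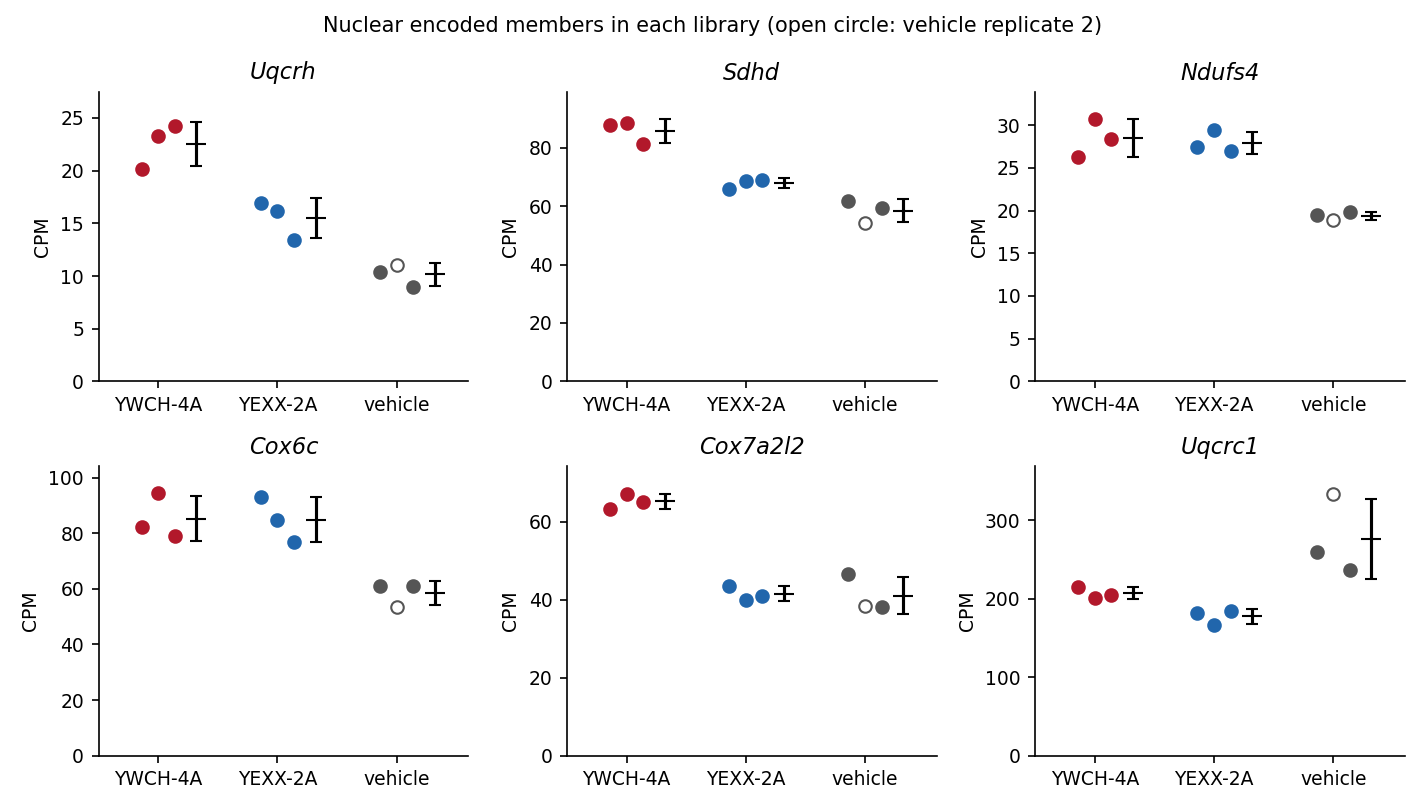
CPM of 6 nuclear encoded members in each library, with the mean and SD of 3 libraries at the right of each group. Uqcrh and Sdhd separate all 3 groups, Ndufs4 and Cox6c are higher with each compound than with vehicle, Cox7a2l2 is higher in YWCH-4A libraries than in all others, and Uqcrc1 is lower with each compound.

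The nuclear calls rested on single libraries to different degrees. Cox6c, Ndufs4, Uqcrc1 and Uqcrh with YEXX-2A, Atp5po, Cox6c, Cox7a2l, Cox7a2l2, Ndufs4, Sdhd and Uqcrh with YWCH-4A, and Cox7a2l2, Sdhd, Uqcrfs1 and Uqcrh between the compounds kept their calls under all 12 alternatives and with each library left out. For YEXX-2A the 32 calls became 9 without YEXX-2A replicate 1, 5 without YEXX-2A replicate 2 and 19 without YWCH-4A replicate 1. They became 27 without vehicle replicate 2 and 12 with the library score in the model. The 4145 calls over all genes became 1459, 1044, 2923, 4083 and 2328 in the same order of settings. For YWCH-4A the 19 calls became 12, 8 and 10 without YWCH-4A replicates 1, 2 and 3, 24 without vehicle replicate 2 and 30 with the score. The 3516 calls over all genes became 2450 without YWCH-4A replicate 2 and 4588 without vehicle replicate 2. Between the compounds the 10 calls became 28 without vehicle replicate 2 and 4 without YEXX-2A replicate 2. They became 5, 5 and 4 without YWCH-4A replicates 1, 2 and 3. The 3593 calls over all genes became 6001 without vehicle replicate 2 and 2225 without YEXX-2A replicate 2.

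Transcript length, implied by a gene's count and FPKM, went with the direction of the nuclear members. Across the 86 nuclear genes, which share libraries and are not independent replicates, Spearman's rho between length and log2 fold change was -0.26 with YEXX-2A, -0.43 with YWCH-4A and 0.00 between the compounds, and over 10821 tested genes it was 0.05, -0.09 and -0.11. Of the 43 nuclear members of at most 718 bases, 11 rose and 1 fell with YEXX-2A (median 0.15), and 11 rose and none fell with YWCH-4A (median 0.25). Among 455 other tested genes as short, the medians were 0.16 and 0.18, and 22.6% and 22.4% rose. Of the 43 longer members, 10 rose and 10 fell with YEXX-2A and 6 rose and 2 fell with YWCH-4A. Among 10267 other longer genes 19.9% and 15.7% fell. Over the 13 mitochondrial genes, which also share libraries, rho was -0.41 with YEXX-2A, -0.03 with YWCH-4A and 0.62 between the compounds. The part of length in these results was not tested.

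**Figure D5:**
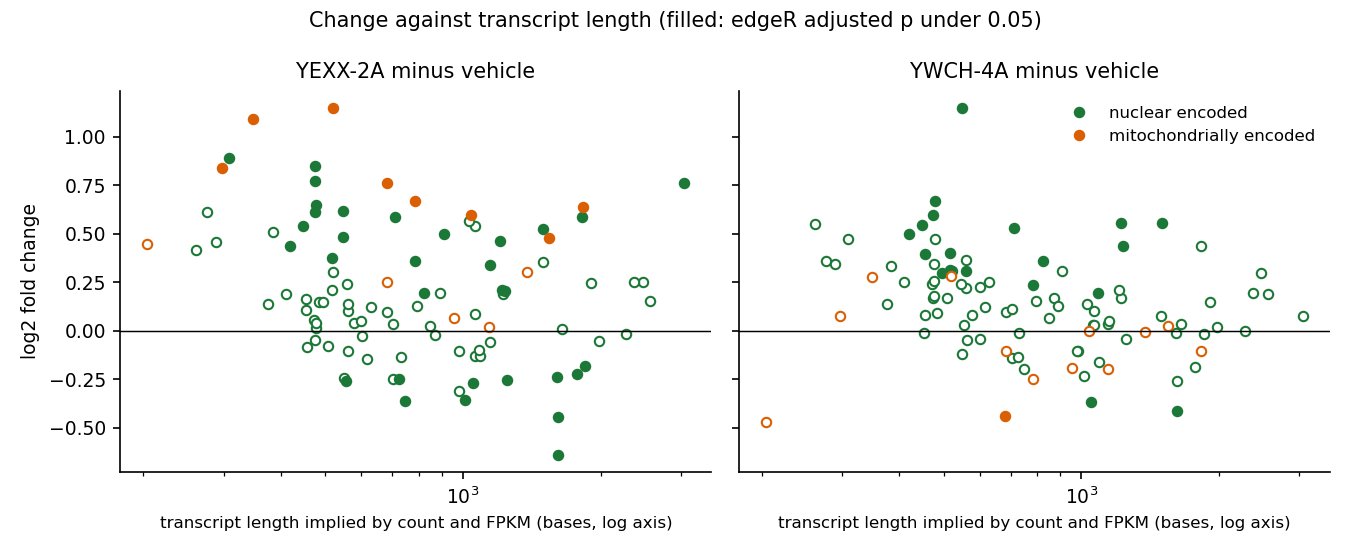
Log2 fold change of each tested respiratory chain gene against the transcript length implied by its count and FPKM (bases, log axis), for YEXX-2A and YWCH-4A against vehicle, filled where the edgeR adjusted p is under 0.05. The 2 nuclear genes called lower with YWCH-4A are longer than 718 bases, and 10 of the 11 called lower with YEXX-2A are as well.

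Promoters of the nuclear members were searched for the letters of motifs bound by NRF1 (GCGCATGC), GABP (CCGGAAG) and YY1 (AAGATGG), factors known to act on respiratory chain genes, on both strands, from 250 bases before to 50 after the start in the RefSeq table of rat assembly GRCr8. Of 87 nuclear member symbols 76 matched. The NRF1 letters stood in 10 of them (13.2%, against 2.47% of all 33469 promoters in the table), the GABP letters in 21 (27.6%, against 8.75%), the YY1 letters in 19 (25%, against 7.01%) and at least 1 of the 3 in 37 (48.7%, against 16.8%). The 4 promoters shown were chosen because they hold motif letters, in capitals, and belong to genes whose calls held in every alternative in at least 1 comparison. Of the other nuclear genes whose calls held so, Atp5po holds NRF1 and YY1 letters, and Cox7a2l, Cox7a2l2 and Uqcrfs1 hold none of the 3. Cox6c, whose calls also held so, was not among the symbols matched to a promoter. A match is a description, not a site or a cause.
Uqcrh: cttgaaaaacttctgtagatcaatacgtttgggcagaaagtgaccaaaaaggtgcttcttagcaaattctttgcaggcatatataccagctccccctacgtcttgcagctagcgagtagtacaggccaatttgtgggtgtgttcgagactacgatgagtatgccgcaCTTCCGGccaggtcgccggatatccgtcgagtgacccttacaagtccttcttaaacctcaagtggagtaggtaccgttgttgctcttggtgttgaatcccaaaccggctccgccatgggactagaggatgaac
Sdhd: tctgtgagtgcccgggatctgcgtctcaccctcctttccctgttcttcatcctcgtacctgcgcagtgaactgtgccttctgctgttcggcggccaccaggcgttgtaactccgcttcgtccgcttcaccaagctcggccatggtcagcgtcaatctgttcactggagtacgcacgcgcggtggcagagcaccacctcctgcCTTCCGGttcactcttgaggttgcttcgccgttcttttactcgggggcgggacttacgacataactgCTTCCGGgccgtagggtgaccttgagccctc
Ndufs4: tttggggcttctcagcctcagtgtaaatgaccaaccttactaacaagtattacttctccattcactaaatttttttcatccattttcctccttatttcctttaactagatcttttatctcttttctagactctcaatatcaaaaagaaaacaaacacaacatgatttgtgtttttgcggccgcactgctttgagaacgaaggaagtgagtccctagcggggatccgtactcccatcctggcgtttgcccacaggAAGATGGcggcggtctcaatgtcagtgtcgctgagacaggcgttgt
Uqcrc1: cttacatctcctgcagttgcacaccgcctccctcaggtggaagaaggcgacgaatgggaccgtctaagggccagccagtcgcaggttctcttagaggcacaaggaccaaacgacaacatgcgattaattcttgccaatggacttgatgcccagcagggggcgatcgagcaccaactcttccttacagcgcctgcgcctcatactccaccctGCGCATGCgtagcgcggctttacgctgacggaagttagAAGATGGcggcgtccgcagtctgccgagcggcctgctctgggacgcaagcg
The windows are chr5:134790833-134791132 (minus strand) for Uqcrh, chr8:59850592-59850891 (minus strand) for Sdhd, chr2:47794865-47795164 (minus strand) for Ndufs4 and chr8:118467973-118468272 (plus strand) for Uqcrc1. The capitals in Uqcrh and Sdhd are GABP letters on the opposite strand, starting 83 bases before the start in Uqcrh and 48 before and 19 after it in Sdhd. Ndufs4 holds the YY1 letters just after its start, and Uqcrc1, which fell, holds NRF1 letters from 39 bases before its start and YY1 letters across it.

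Calls by motif letters were counted in each comparison. Of all tested genes 17.6% were higher and 18.5% lower with YEXX-2A, and 15.7% and 14.9% with YWCH-4A. Between the compounds 16.2% of all tested genes were higher and 15.1% lower with YWCH-4A. Of 20 tested members with GABP letters, 4 rose and 3 fell with YEXX-2A, 4 rose and none fell with YWCH-4A, and 3 were higher and none lower with YWCH-4A than with YEXX-2A. Of 53 without GABP letters, the counts were 14 and 7, 12 and 2, and 4 and 2. Of 18 members with YY1 letters, 6 rose and 2 fell with YEXX-2A, 6 rose and 1 fell with YWCH-4A (median 0.31), and none was called between the compounds. Of 55 without YY1 letters, the counts were 12 and 8, 10 and 1 (median 0.14), and 7 and 2. Of 10 members with NRF1 letters, 3 rose and 1 fell with YEXX-2A, 2 rose and 1 fell with YWCH-4A, and 1 was higher and 2 lower between the compounds. Of 63 without NRF1 letters, the counts were 15 and 9, 14 and 1, and 6 and 0. These counts were given no test.

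The machinery around the chain was read from lists of other genes, whose counts stand beside 36.1% of all tested genes called with YEXX-2A (17.6% higher and 18.5% lower) and 30.6% with YWCH-4A (15.7% higher and 14.9% lower). Of 19 tested genes that copy and transcribe mitochondrial DNA, 4 rose and 3 fell with YEXX-2A (median 0.15), and 3 rose and 4 fell with YWCH-4A (median 0.14), shares near those of all tested genes. Lonp1, a matrix protease that degrades Tfam and other proteins, was at 199, 195 and 208 CPM in YWCH-4A, 273, 270.4 and 295 CPM in YEXX-2A and 359, 455 and 377 CPM in vehicle libraries, with no overlap between groups. It fell by 0.98 with YWCH-4A (edgeR adjusted p = 1.16e-05) and by 0.51 with YEXX-2A (edgeR adjusted p = 0.00402). Tfam, which packages mitochondrial DNA, rose with both (0.41 with YEXX-2A and 0.42 with YWCH-4A), but vehicle replicate 2 was lowest and without it Tfam was at 0.24 with YEXX-2A and 0.25 with YWCH-4A. Polrmt, the mitochondrial RNA polymerase, and Polg, the DNA polymerase, fell with both, at -0.43 and -0.39 with YEXX-2A and -0.40 and -0.37 with YWCH-4A, and without vehicle replicate 2 the YWCH-4A call of Polrmt was lost. Tfb2m, the initiation factor of that RNA polymerase, rose with YEXX-2A (0.83).

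Of 20 genes for processing and stability of mitochondrial RNA, 8 rose and 2 fell with YEXX-2A (median 0.15), and 2 rose and 4 fell with YWCH-4A (median 0.03), beside 17.6% higher and 18.5% lower of all tested genes with YEXX-2A and 15.7% and 14.9% with YWCH-4A. Grsf1, a protein of mitochondrial RNA granules, rose with both, at 0.34 with YEXX-2A and 0.30 with YWCH-4A, and Fastk, a regulator of the ND6 mRNA in mammals, fell with both (-0.53 and -0.47). Elac2, which cuts tRNA 3' ends from the long transcripts, fell with YWCH-4A (-0.40). Lrpprc, which stabilises mitochondrial mRNAs, was not called. Between the compounds Rexo2, an oligoribonuclease, and Ptcd3 of the mitochondrial ribosome were lower with YWCH-4A, at -0.22 and -0.61.

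Of 15 tested regulators of mitochondrial biogenesis, 2 rose and 5 fell with YEXX-2A, where 36.1% of all tested genes were called, and 1 rose and 3 fell with YWCH-4A, near the 30.6% of all tested genes. Ppargc1a, the best known coactivator of these genes, had no count in any of the 9 libraries. Nrf1 and its coactivator Pprc1 fell with both compounds, Nrf1 by 0.33 and Pprc1 by 0.40 with YEXX-2A and Nrf1 by 0.26 and Pprc1 by 0.52 with YWCH-4A. Gabpa, the DNA-binding subunit of GABP, was at 0.77 with YEXX-2A (edgeR adjusted p = 0.0312) and not called with YWCH-4A, and without vehicle replicate 2, the lowest library, it was at 0.48 with YEXX-2A.

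Of 40 tested assembly factors outside the member rule, 7 rose and 4 fell with YEXX-2A and 3 rose and 1 fell with YWCH-4A, smaller shares than the 36.1% and 30.6% of all tested genes. Oxa1l, which inserts mitochondrially made proteins into the inner membrane, and Coa3, which binds newly made Mt-co1 protein, fell with YEXX-2A (-0.29 and -0.34) and were higher with YWCH-4A than with YEXX-2A (0.48 and 0.61). Leaving out vehicle replicate 2 put Coa3 at -0.22 with YEXX-2A. Cmc1, a partner of Coa3, rose with both (0.49 with YEXX-2A and 0.72 with YWCH-4A). Of 20 tested electron carrier and coenzyme Q genes, 4 rose and 3 fell with YEXX-2A and 3 rose and none fell with YWCH-4A, against the same 36.1% and 30.6%. Cycs, the cytochrome c between complexes III and IV, rose with both (0.66 with YEXX-2A and 0.38 with YWCH-4A, the last being 0.24 without vehicle replicate 2).

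Of 21 citric acid cycle and pyruvate genes, 1 rose and 5 fell with YEXX-2A and 1 rose and 4 fell with YWCH-4A, smaller shares than the 36.1% and 30.6% of all tested genes called. The NADP-linked Idh2 was at -0.51 with YEXX-2A and -0.34 with YWCH-4A, and at -0.22 with YWCH-4A without vehicle replicate 2. Of 24 carriers, pores and membrane organisers, 5 rose and 2 fell with YEXX-2A and 6 rose and 6 fell with YWCH-4A, beside the same 36.1% and 30.6%. The ADP/ATP carrier Slc25a4, which exchanges the product of complex V with the cytosol, was at 314, 323 and 318 CPM in YWCH-4A, 233, 242 and 243 CPM in YEXX-2A and 233, 203 and 227 CPM in vehicle libraries. Its YWCH-4A libraries were above all others (log2 fold change 0.53 with YWCH-4A, edgeR adjusted p = 0.000111; 0.12 with YEXX-2A, edgeR adjusted p = 0.161), and the paralogue Slc25a5 rose with YWCH-4A as well (0.45).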

How the data were processed

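RNA from 9 libraries of NRK-49F cells was measured, with groups taken from the labels. The authors deposited, per gene, estimated counts and FPKM (per kilobase of transcript and scaled to library size by the authors). The submitters' processing notes name StringTie 1.3.1, RSEM, DESeq2 and edgeR without their roles, and the aligner, build and annotation are not given in the sources used here. From the deposited expected counts, of which 8.87% of those above 0 were not whole, rounded values were tested with edgeR 4.0.16 in R 4.3.3 (filterByExpr with a minimum count of 10, TMM factors, robust quasi-likelihood F test over all 9 libraries, Benjamini-Hochberg adjustment over 11473 genes, threshold 0.05). The SE of a log2 fold change is the change over the root of its F value. CPM used TMM-scaled totals, and implied length is the count over FPKM and total, in genes with at least 20 counts and 1 FPKM. The library score is the projection of centred log2 CPM on the first component of within-group deviations. Its group means were 1.69 in YWCH-4A, -16.6 in YEXX-2A and 14.9 in vehicle libraries. Fits with the score can therefore also take up part of a group difference.

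Alternatives were DESeq2 1.42.0 as scaling and as test, upper-quartile scaling, totals without mitochondrial genes, 2 other filters, limma 3.58.1 (voom, and trend on log2 FPKM plus 1 or 0.1), the 2 compared groups alone, a replicate block, the library score as a covariate, and each library left out. The edgeR test was checked on simulated data first, the alternatives were not. Members and lists were chosen with earlier results of these data known. Named are the mitochondrial members, the isoform pairs, and Ppargc1a, Nrf1, Gabpa, Tfam, Polrmt and Lrpprc. Also eligible were the 2 nuclear members of each complex and the 2 genes of each list with the smallest p in each comparison. Not all of these eligible genes are named, and the citric acid cycle list is told by Idh2 and the electron carrier list by Cycs. Other genes were named after their values were seen, to complete the called genes of a complex, and 1 called member is counted but not reported by name here. Of 214 list entries 203 matched by symbol and 1 by a RefSeq synonym, and 10 did not match. Promoters are from the RefSeq table of assembly GRCr8. Library totals set the precision, and spreads cover these libraries only.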

Additional observations from a re-analysis of the deposited data

How the results depend on the processing

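The 8 mitochondrial genes called with YEXX-2A became 4 to 10 with single libraries left out, the median of 0.60 became 0.43 to 0.67 and was 0.27 in the fit with the library score. Mt-cyb was then at -0.20. The 32 nuclear calls became 5 to 34 (median 0.06 to 0.19), 12 with only the 2 groups compared and 12 with the score, and the 4145 calls over all genes became 1044 to 5308, 1408 and 2328. With YWCH-4A the single mitochondrial call became 0 to 6 (median -0.21 to 0.05), 3 with DESeq2 size factors, with mitochondrial genes out of the totals and with DESeq2, 2 with upper-quartile factors, no filter, 1 CPM in 6 libraries and limma-voom, 0 on both FPKM scales and 8 with the score. The 19 nuclear calls became 8 to 24 (median 0.14 to 0.22), 52 and 51 on log2 of FPKM plus 1 and plus 0.1 (medians 0.33 and 0.34) and 30 with the score, and the 3516 calls over all genes became 2450 to 4588, and 5673 with the score. Between the compounds the 11 mitochondrial calls became 8 to 13 (median -0.78 to -0.64, and -0.50 with the score). The 10 nuclear calls became 4 to 28 (median 0.02 to 0.08), 27 on each FPKM scale (medians 0.14 and 0.14) and 24 with only the 2 groups compared, where all genes gave 5903 calls in place of 3593 (2225 to 6001 with libraries left out).

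On the FPKM scales calls over all genes also leaned upwards, with 2307 higher and 1415 lower for YEXX-2A, 3670 and 1030 for YWCH-4A and 2986 and 1126 between the compounds (plus 1), against 2022 and 2123, 1801 and 1715, and 1858 and 1735 in the counts. With YWCH-4A, Ndufv3 was then at 0.079 and 0.080, Sdha at 0.17 and 0.17 and Atp5f1a at 0.16 and 0.16, all below 0 in the counts. Between the compounds Ndufv3 was at 0.24 and 0.25. The cause was not tested. Shares of summed FPKM from mitochondrial genes were 3.07% with YWCH-4A, 4.18% with YEXX-2A and 3.09% with vehicle, and the nuclear share with YWCH-4A was 0.744% with mitochondrial genes out of the total.

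Same-numbered libraries did not clearly deviate together. The labels do not say whether they shared a culture or batch, and 3 libraries a group cannot decide it. Correlations of same-numbered deviations were -0.01 to 0.08 between YWCH-4A and YEXX-2A, -0.13 to 0.00 between YWCH-4A and vehicle and -0.27 to 0.08 between YEXX-2A and vehicle. With the replicate block, nuclear calls were 11 with YEXX-2A and 4 between the compounds, YWCH-4A had 0 mitochondrial calls, and all genes gave 1931 calls with YEXX-2A. Replicates of 3 per group and the counts of low members such as Mt-atp8 and Atp5md limit the precision.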
